A study of Mus musculus with 21 samples.

Results

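The genes for the proteins of the mitochondrial ribosome were followed through H3K36me3 peak lists from differentiating mouse muscle cells. They were taken as the protein-coding RefSeq genes whose symbol is Mrpl or Mrps, a number and at most 1 further letter. This gave 78 of 21887 protein-coding genes, 49 of them named for the large ribosomal subunit (Mrpl) and 29 for the small one (Mrps). Of the 78, 73 are at least 2 kb long, and 70 of these entered the tests across genes.

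Mitochondrial ribosomes translate the few proteins encoded by mitochondrial DNA, which are core subunits of the respiratory chain and of the ATP synthase. All protein parts of these ribosomes are encoded in the nucleus, made in the cytosol and imported. H3K36me3 is a histone mark that SETD2 places on gene bodies behind elongating RNA polymerase II, and it is usually densest towards the 3′ end. SETD2 uses S-adenosylmethionine, which cells make from methionine.

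C2C12 is an established mouse myoblast line that fuses into myotubes in culture. Wild-type (WT) cells had 2 replicate libraries for day 0, and 2 for each medium, control or methionine-restricted, on days 1 and 5. The labels give no medium for day 0, so a difference from day 0 may also hold a change of medium. The series also has 2 lines in which Setd2 was knocked out (KO line 1 and KO line 2), each with 1 library in each of the same 5 conditions. The labels do not say whether a line is 1 clone, nor whether replicates came from separate cultures, so the p-values measure only the spread between these libraries. The measure throughout is cover, the percent of a gene body that lies inside the peaks of a library, and a gene covered to at least 50% is called marked.

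The 10 WT libraries had 63423 to 87398 peaks over 110 to 183 Mb, and the 10 KO libraries had 127 to 64530 peaks over 0.00821 to 74.1 Mb. In WT cells peaks covered 128 and 110 Mb in the restricted day 1 libraries against 140 and 150 Mb in their controls, and 131 and 134 Mb against 183 and 171 Mb at day 5. The depth of the libraries is unknown, so how far a change of cover is a change of the mark, of depth or of peak calling cannot be told apart. Of 8 muscle markers, Myod1, Des, Cdh15 and Myf5 were covered at day 0, to 52.6%, 86.5%, 90.7% and 11.9% on average, and the differentiation genes Myog, Myh3, Acta1 and Ckm were at 0%. Under restriction 6 of the 7 muscle markers tested fell at day 1 (median -47.2 percentage points) and 7 of 7 at day 5 (median -62.3). At day 5 Myog had 92.6% in control medium and 0% under restriction, and Acta1 had 93.1% and 8.66%. The part of this difference in muscle markers in the results on restriction below was not tested. Of 8 markers of other cell types, 7 had no peak in any WT library, and the epithelial gene Cdh1 had a mean cover of 0.0438%.

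The promoters of 4 members are shown first, for the letters of known regulators of nuclear genes for mitochondria found there. Peaks spared the starts of members, as they did those of most protein-coding genes. Each window is 300 bases of GRCm38.p6 across the RefSeq start, most of them upstream, written 5′ to 3′ on the gene's strand. Capitals mark exact matches, on either strand, to CCGGAAG (core of an ETS or GABPA site) or AAGATGGCG (YY1 site). Mrpl3 was covered more and Mrpl52 less under restriction, and Mrpl42 had the highest cover in WT cells. The Mrps11 window also holds the start of Mrpl46, which lies head to head with it on chromosome 7 with a gap of 41 bp between the gene bodies.
Mrpl3, chr9:105053018-105053317, plus strand: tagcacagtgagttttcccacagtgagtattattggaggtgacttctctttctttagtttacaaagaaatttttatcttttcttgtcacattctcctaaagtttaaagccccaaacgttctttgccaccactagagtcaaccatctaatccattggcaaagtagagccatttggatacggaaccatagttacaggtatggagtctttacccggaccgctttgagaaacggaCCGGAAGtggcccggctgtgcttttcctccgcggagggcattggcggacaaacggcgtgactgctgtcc
Mrps11, chr7:78782881-78783180, plus strand: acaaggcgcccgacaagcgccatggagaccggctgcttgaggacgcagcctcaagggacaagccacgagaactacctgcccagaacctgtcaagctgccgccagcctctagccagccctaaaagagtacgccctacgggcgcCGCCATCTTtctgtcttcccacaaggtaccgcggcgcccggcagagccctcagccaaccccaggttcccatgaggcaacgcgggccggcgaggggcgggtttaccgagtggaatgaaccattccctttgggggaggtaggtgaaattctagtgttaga
Mrpl52, chr14:54426659-54426958, plus strand: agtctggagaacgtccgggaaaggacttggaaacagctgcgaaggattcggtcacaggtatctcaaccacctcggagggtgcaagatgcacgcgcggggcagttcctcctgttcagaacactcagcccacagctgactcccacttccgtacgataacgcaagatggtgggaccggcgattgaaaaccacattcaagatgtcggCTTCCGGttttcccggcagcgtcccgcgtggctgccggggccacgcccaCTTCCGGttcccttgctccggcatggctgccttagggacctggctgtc
Mrpl42, chr10:95501900-95502199, minus strand: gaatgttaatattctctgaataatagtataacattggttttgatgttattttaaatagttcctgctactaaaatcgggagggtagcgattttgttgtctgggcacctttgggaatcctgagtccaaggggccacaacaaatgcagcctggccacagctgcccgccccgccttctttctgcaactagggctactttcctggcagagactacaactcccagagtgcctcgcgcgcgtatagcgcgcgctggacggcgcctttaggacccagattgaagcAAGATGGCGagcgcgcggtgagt

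The promoter table matched 69 of the 78 members, with 75 windows. In 74 of the 75 windows, 98.7%, no WT library had any peak cover, against 95.8% of 21263 windows of all protein-coding genes. The ETS letters CCGGAAG were present at 26 of the 69 members, 37.7%, against 12.9% of 17492 protein-coding genes. The YY1 letters AAGATGGCG were present at 8 members, 11.6%, against 2.14%, and the NRF1 core GCGCATGC at 8 members, 11.6%, against 3.94%. Any of the 3 was present at 36 members, 52.2%, against 17.6%. The NRF1 core overlaps its own reverse complement within a full palindromic site. The windows of members are richer in CpG, with a median of 21 CpG dinucleotides against 13, and this was not corrected for. A match is a run of letters and not a measured binding site.

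In the WT day 0 libraries peaks reached 73 and 71 of the 73 members of at least 2 kb, 100% and 97.3%, where they reached 97.9% and 98.3% of other tested genes and 53.6% and 54.2% of other genes of at least 2 kb. Of the members, 48 ± 2.83 (SD, n = 2) were marked. These were 68.5% and 63% of the members, where 28.1% and 26% of other genes of at least 2 kb, and 57.3% and 52.9% of other tested genes, were marked. In control medium 38 ± 1.41 members (SD, n = 2) were marked on day 1, and 41 ± 4.24 (SD, n = 2) on day 5. In restricted medium the numbers marked were 22.5 ± 6.36 (SD, n = 2) on day 1, then 32.5 ± 0.707 (SD, n = 2) on day 5. Both restricted libraries lay below both controls on each day, as they did for other tested genes, of which 32% and 25.4% were marked under restriction against 44.7% and 47.7% at day 1, and 34.3% and 35.4% against 55.2% and 50.6% at day 5. Over single members, 13 were marked in all 10 WT libraries, 41 in 1 to 9 of them and 19 in none, while 60 had a peak in all 10. In the same order these are 17.8%, 56.2%, 26% and 82.2% of the members, against 20.4%, 47%, 32.6% and 86.7% of other tested genes, and 9.99%, 23.1%, 66.9% and 44.4% of other genes of at least 2 kb.

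**Figure D1:**
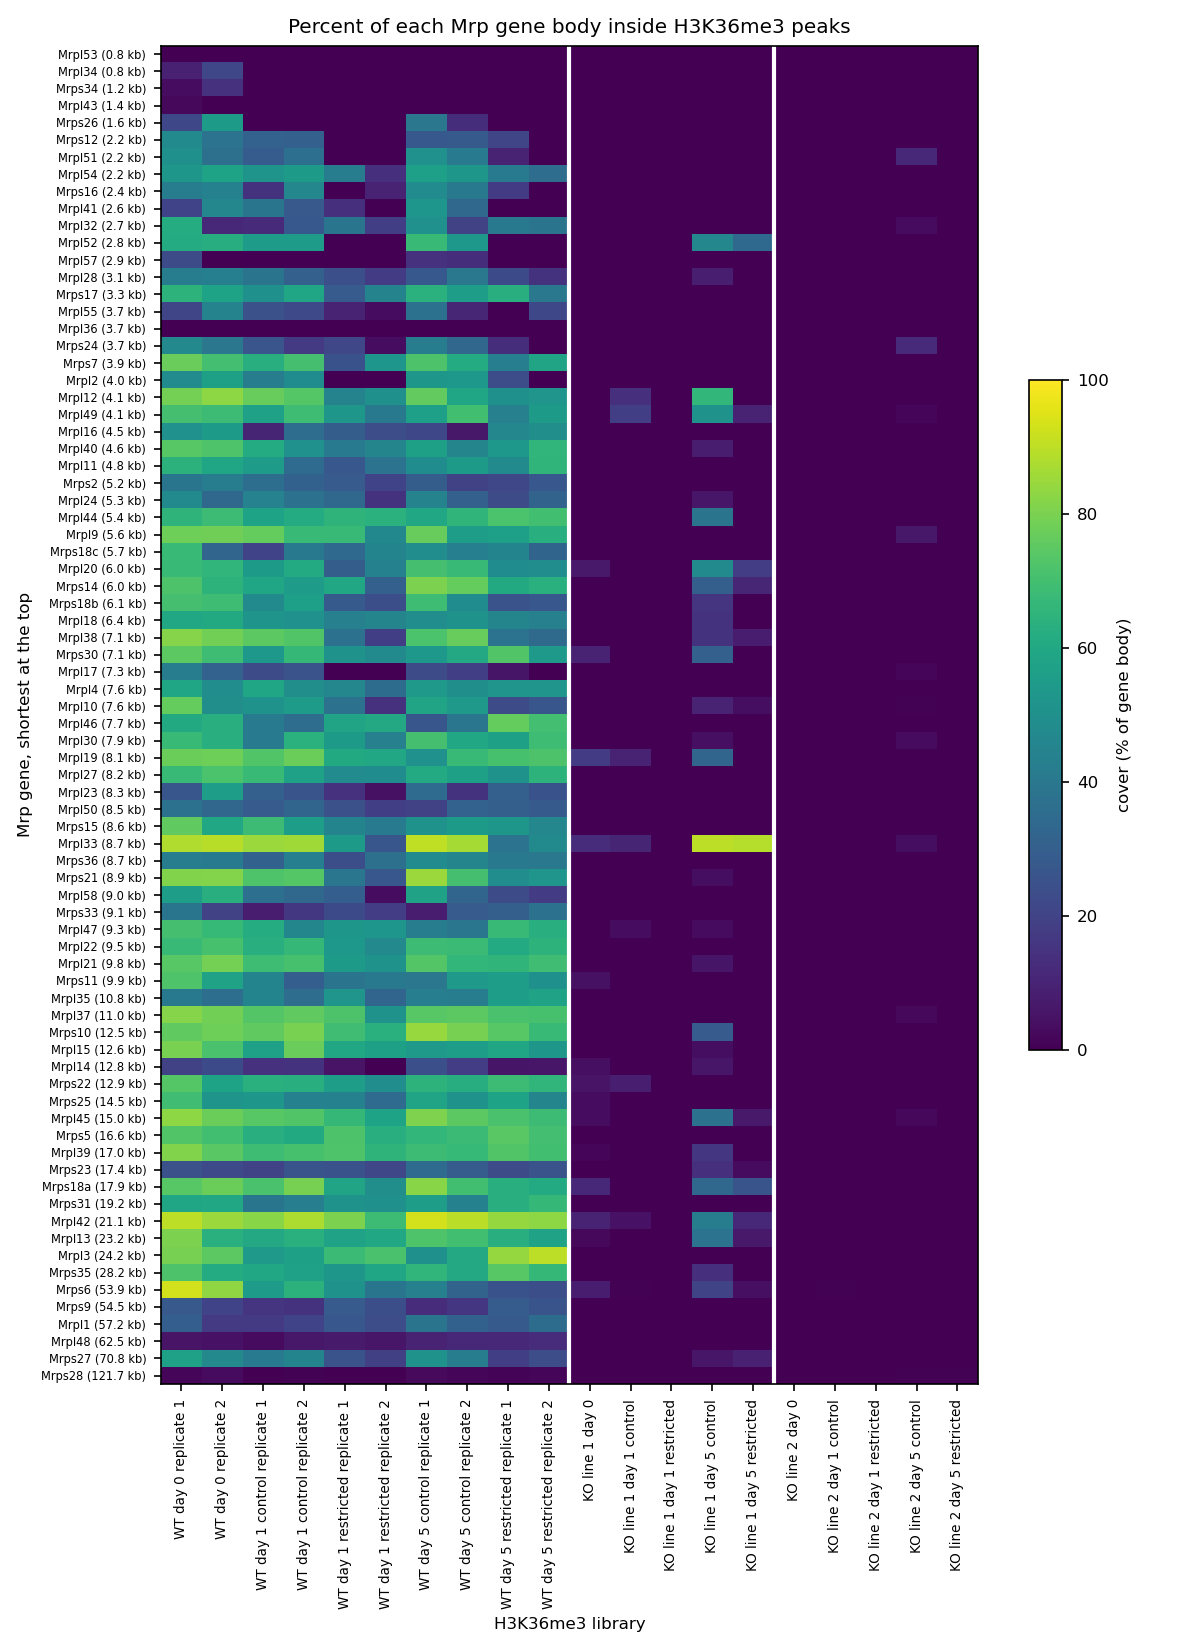
Percent of the body of each of the 78 Mrp genes inside H3K36me3 peaks (colour, 0 to 100%), with genes in rows from the shortest at the top and the 20 libraries in columns. White lines part the 10 WT libraries, the 5 of KO line 1 and the 5 of KO line 2; WT columns are filled for most genes of at least 2 kb, and KO line 2 columns are close to empty.

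Mrpl42, a large-subunit protein with no bacterial counterpart, had the highest mean cover over the 10 WT libraries, 84.3%, with values of 68.5% to 93.2%. Mrps10 followed with 74.7%, Mrpl45 with 72.8%, Mrpl37 with 72.4% and Mrpl39 with 71.1%. Mrps10 belongs to the part of the ribosome shared with bacteria, and Mrpl45 sits near the exit of the nascent chain at the inner membrane. At the other end, Mrpl36 had a single trace of 0.272% in 1 day 0 library and nothing in the other 9. Mrps28, the longest member at 122 kb, averaged 1.19%, Mrpl57 5%, Mrpl48 7.82% and Mrpl14 13%. Mrpl48 has 1 annotated pseudogene copy, so its value is uncertain, as are those of Mrpl23, Mrpl27 and Mrps36, which have copies too. The 5 members under 2 kb stood apart: Mrpl53 had no peak in any WT library, Mrpl43 averaged 0.224%, Mrps34 1.75%, Mrpl34 3.04% and Mrps26 12.9%. Mrps26 had 21.5% and 54.3% in the day 0 libraries, 39.7% and 13.2% in the day 5 controls, and none in the other 6 WT libraries.

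Within the gene body, cover lay towards the 3′ end. Bodies were cut into 10 equal bins from 5′ to 3′. At day 0 the mean over 63 members with a known strand was 4.54% in bin 1, 67.2% in bin 5 and 84.1% in bin 10. Over all WT libraries, 59 of these 63 members, 93.7%, had more cover in the 5 bins at the 3′ end than in the 5 at the 5′ end, as had 90.5% of 7648 other tested genes. The median member had 24.8% in the 5′ bins and 72.9% in the 3′ bins, against 24.9% and 63.1% in the other genes. The exceptions were Mrpl1, Mrpl17, Mrps27 and Mrps6. Mrpl17 had 32.4% in its 5′ bins and 1.56% in its 3′ bins. Mrps6 had 66.1% and 35.9%, and 54.1% of its body is shared with the transporter gene Slc5a3.

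Cover also lay towards the 3′ end under restriction. At day 1 the mean of the 5′ bins was 26.4% in control and 16.6% in restricted medium, and that of the 3′ bins was 68.6% and 53.8%. At day 5 the 5′ bins had 29.6% and 20.7%, and the 3′ bins 71% and 64.5%. Other genes of 2 to 20 kb had 70.2% and 49.9% in the 3′ bins at day 1, and 71.2% and 56.8% at day 5. In the same bins and media the 17 members under 5 kb had 73.4% and 40.6% at day 1, and 78.3% and 49.2% at day 5. The 46 members of at least 5 kb had 66.9% and 58.7% at day 1, and 68.3% and 70.2% at day 5.

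**Figure D2:**
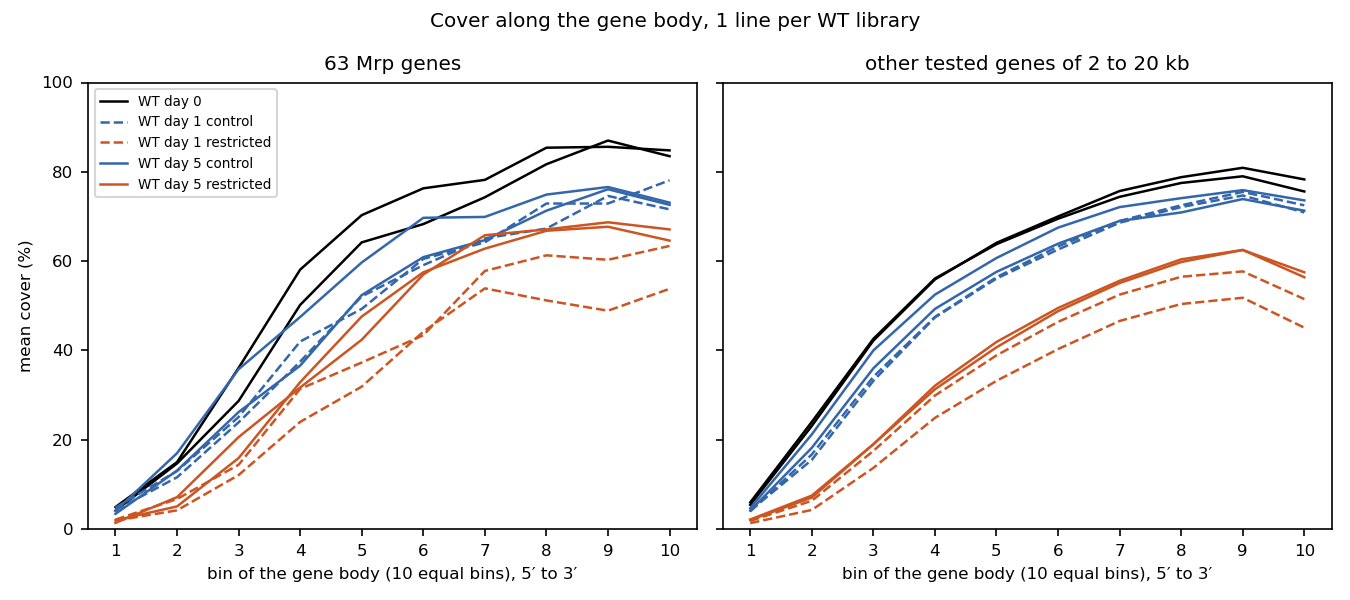
Mean cover (%) in each of 10 equal bins of the gene body from 5′ to 3′, 1 line per WT library, for 63 Mrp genes (left) and 3466 other tested genes of 2 to 20 kb (right); black is day 0, blue control and orange restricted medium, dashed lines are day 1. In Mrp genes the day 5 restricted libraries reach 64.6% and 67.1% in bin 10, against 73.1% and 72.6% in their controls.

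Restriction for 1 day gave more members a lower cover than a higher one. By limma across 9514 genes, 22 of the 70 members fell and 3 rose, where 36% of all genes tested fell and 2.38% rose. The median difference, restricted minus control, was -12.4 percentage points over the members and -7.99 over all genes tested. Centring each library on its own median adds the same constant to every gene's difference, and it moved the median of all genes to 7.2. It gave 12 members higher and 6 lower, 17.1% and 8.57%, against 37% and 13.1% of all genes. Whether the counts with or without centring are nearer to the mark was not tested. Lists cut to equal covered length gave 4 higher and 8 lower of 67 members, 5.97% and 11.9%, against 10.1% and 23.6% of all genes. Without replicate 2 of the day 1 control, the median difference was -12.1 points over members and -7.29 over all genes. Without replicate 2 of restricted day 1, these medians were -7.97 and -5.73 points.

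Mrpl52, a large-subunit protein with no bacterial counterpart, had 55% and 54.7% in the day 1 control libraries and 0% in both restricted ones. The difference was -54.9 points (SE 4.63, limma adjusted p = 9.16e-05), and it was called in 18 of 18 alternative analyses. Mrpl38 went from 74.8% and 72.8% to 37.6% and 18.6% (-45.7 points, SE 5.92, adjusted p = 0.000631), also called in 18 of 18. Mrpl2, which lies close to the catalytic centre of the ribosome, had 42.4% and 48.7% in control medium and 0% in both restricted libraries (-45.5 points, SE 7.05, adjusted p = 0.00151). Mrpl33 had 85% and 85.6% against 54.5% and 26.9% (-44.6 points, SE 7.71, adjusted p = 0.00255), but all of its body is shared with the long non-coding RNA gene Gm38424. Mrps21 had 72.6% and 73.6% against 39.2% and 27.2% (-40 points, SE 5.55, adjusted p = 0.000892). The rule that chose these 5 required control and restricted libraries to be apart. Mrpl2 and Mrps21 were no longer called with peaks of −log10 q of at least 3 or with lists of equal length, where the adjusted p reached 0.518 and 0.671.

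The 3 members that rose at day 1 were Mrpl46, Mrpl3 and Mrps9. Mrpl46 had 41.2% and 35.7% in control medium and 58.4% and 60.3% under restriction (20.9 points, SE 4.92, adjusted p = 0.011). Mrpl3, whose bacterial relative reaches towards the catalytic centre, had 54.2% and 57% against 68.2% and 71.3% (14.1 points, SE 4.33, adjusted p = 0.0329). Mrps9 had 15.1% and 14.7% against 28.8% and 24.1% (11.6 points, SE 3.49, adjusted p = 0.0304). The calls of Mrpl3 and Mrps9 were lost without any 1 of the 4 day 1 libraries, with adjusted p of up to 0.142 and 0.129 over all alternatives. That of Mrpl46 was lost without replicate 2 of the control, at 0.0729, or of restricted day 1, at 0.0586, and with the stricter peaks, at 0.767.

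**Figure D3:**
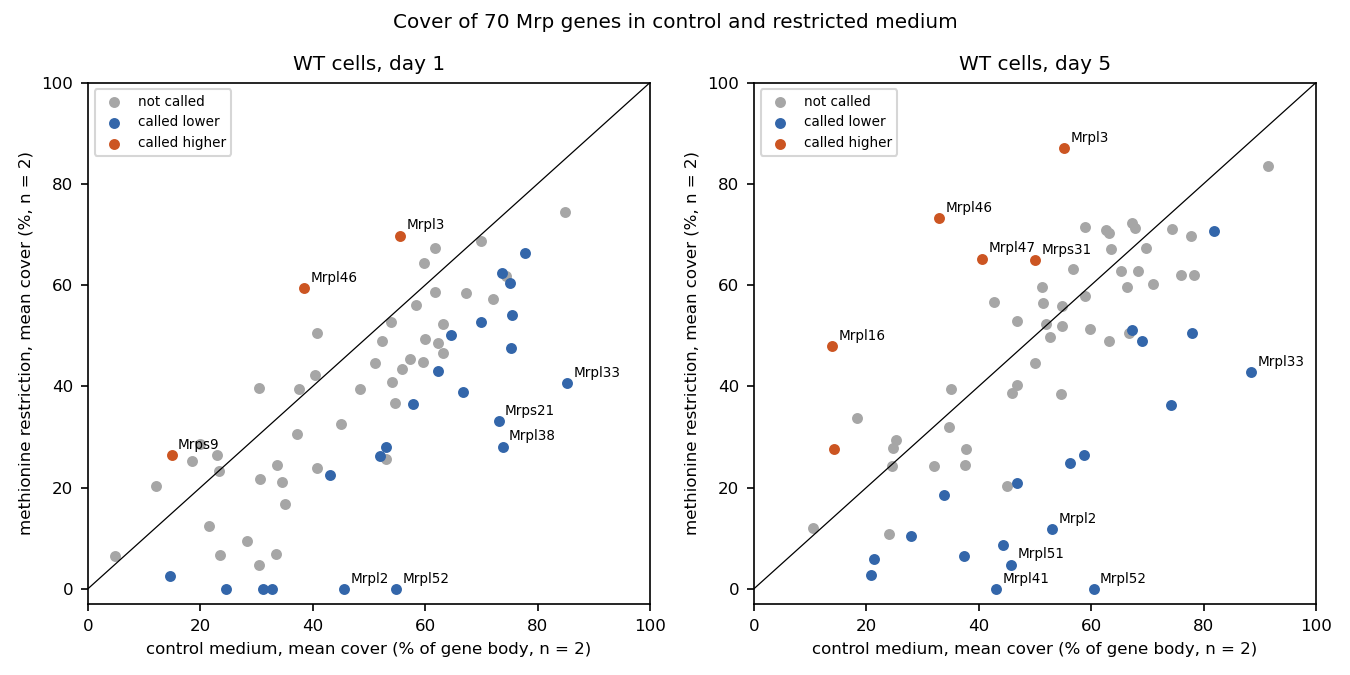
Mean cover of the 70 tested Mrp genes in control medium (x axis, % of gene body) and under methionine restriction (y axis, %) in WT cells at day 1 (left) and day 5 (right), with the line of equality; blue genes were called lower, orange higher, grey not called. The 6 orange genes at day 5 lie above the line, farthest for Mrpl46, and Mrpl52 lies at 0% under restriction on both days.

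At day 5 restriction was again followed by lower cover in more members than by higher cover. Of the 70 members 19 fell and 6 rose, where 41.5% of all genes tested fell and 4.32% rose. The median difference was -6.72 points over the members and -9.16 over all genes. Centring, again a constant shift, moved the median of all genes to 7.52 and gave 30 members higher and 7 lower, 42.9% and 10%, against 39.5% and 14.7% of all genes. Lists of equal length gave 19 higher and 10 lower of 67 members, 28.4% and 14.9%, against 17% and 24.8% of all genes, with a median of 10 points over members and -1.88 over all genes. Peaks of −log10 q of at least 3 gave 9 higher and 7 lower of 65 members, 13.8% and 10.8%, against 7.46% and 28% of all genes, with medians of -5.52 and -6.93 points. Without replicate 1 of the day 5 control, the median difference was -4.38 points over members and -7.8 over all genes. Without replicate 2 of restricted day 5, these medians were -6.91 and -9.44 points.

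The members that fell at day 5 again included Mrpl52, with 67.4% and 53.5% in control medium and 0% in both restricted libraries (-60.4 points, SE 4.63, adjusted p = 3.82e-05). Mrpl33 had 90.4% and 86.5% against 38.2% and 47.5% (-45.6 points, SE 7.71, adjusted p = 0.00183). Mrpl41 had 52.4% and 33.9% against 0% in both (-43.1 points, SE 9.37, adjusted p = 0.00626), a call lost at 0.0595 without replicate 1 of the control. Mrpl2 had 52.8% and 53.4% against 23.7% and 0% (-41.3 points, SE 7.05, adjusted p = 0.00193), a call lost with the stricter peaks and with lists of equal length. Mrpl51 had 50.6% and 40.9% against 9.62% and 0% (-40.9 points, SE 5.75, adjusted p = 0.000705) and kept its call in 18 of 18 alternatives. Of these 5 genes, again chosen for libraries that do not overlap, Mrpl52, Mrpl41, Mrpl2 and Mrpl51 are shorter than 5 kb, while 10 of all 19 members that fell are longer, up to Mrps27 with 70.8 kb.

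Of the 6 members that rose at day 5, Mrpl46 had 26.9% and 39.1% in control medium and 76.2% and 70.3% under restriction (40.3 points, SE 4.92, adjusted p = 0.000347). Mrpl3 had 50% and 60.5% against 84% and 90% (31.8 points, SE 4.33, adjusted p = 0.000603), and Mrpl47 had 42.1% and 39.2% against 67.4% and 63% (24.6 points, SE 5.37, adjusted p = 0.00646). These 3 were called higher in 18 of 18 alternatives. Mrpl16 had 21.5% and 6.36% against 46.2% and 49.6% (34 points, SE 8.1, adjusted p = 0.00954), a call lost at 0.0727 without replicate 2 of the control, at 0.0521 without replicate 2 of restricted day 5, and with the stricter peaks. Mrps31 had 56.2% and 44% against 63% and 66.7% (14.8 points, SE 4.63, adjusted p = 0.03), a call lost without replicate 2 of the control, at 0.16, or either restricted library. Mrps11, whose start lies beside that of Mrpl46, had 39.7% and 53.9% against 55.6% and 50.1% at day 5 and was not called.

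**Figure D4:**
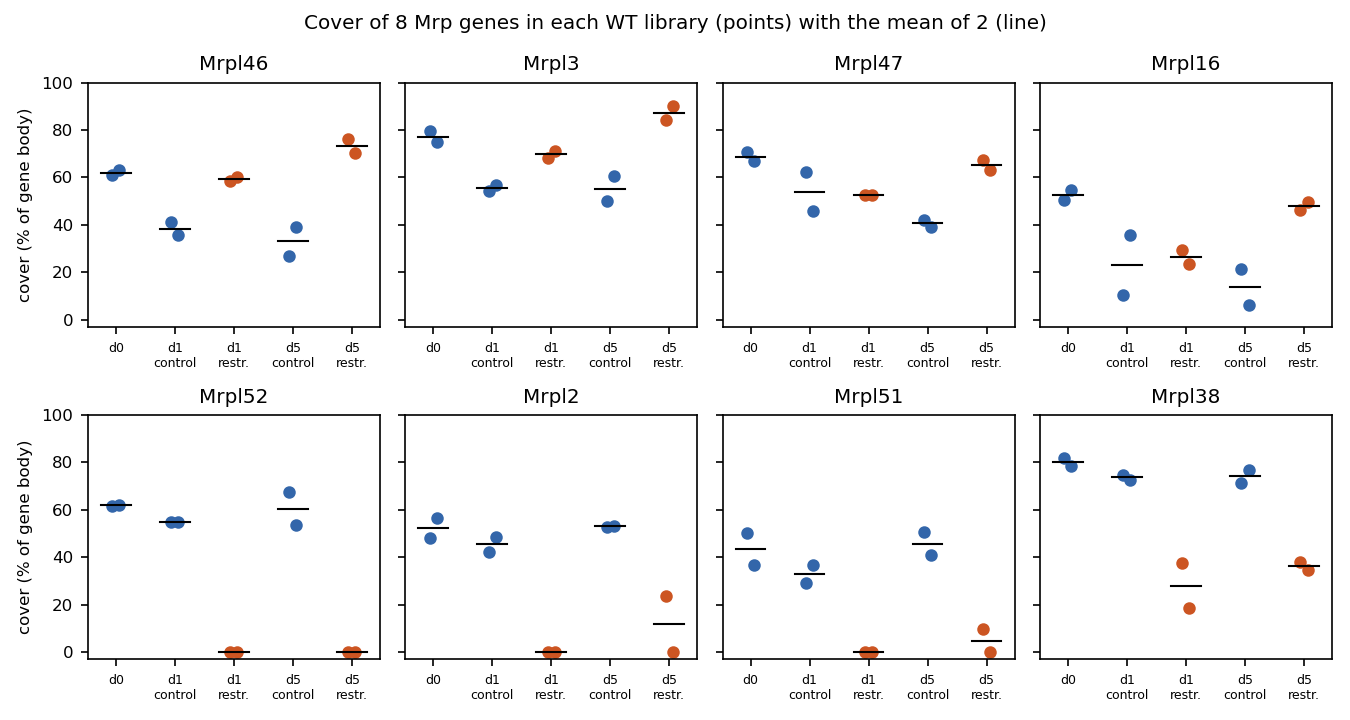
Cover (% of gene body) of 8 Mrp genes in each WT library (points; blue day 0 and control medium, orange restricted) with the mean of 2 (line). The upper row shows genes called higher under restriction at day 5 (Mrpl46, Mrpl3, Mrpl47, Mrpl16), the lower row genes called lower on both days (Mrpl52, Mrpl2, Mrpl51, Mrpl38).

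Calls on the 2 days came from different libraries. Of the 70 members, 14 fell on both days, 3 rose on both (Mrpl3, Mrpl46 and Mrps9), 8 fell at day 1 alone, 5 fell at day 5 alone, 3 rose at day 5 alone and 37 were called on neither. Falls on both days thus made up 20% of members and 26.3% of all genes tested, and rises on both 4.29% and 0.799%. Falls at day 1 alone were 11.4% of members and 9.56% of all genes, falls at day 5 alone 7.14% and 15.2%, rises at day 5 alone 4.29% and 3.37%, and genes called on neither day 52.9% and 43.1%. No member fell on 1 day and rose on the other, as 0.0526% and 0.147% of all genes did in either order. The difference between the days was tested itself, and by limma 0 of the 70 members passed, with 7 (10%) at an unadjusted p under 0.05, where 5.2% of all genes were called and 20.3% had such a p. The median of that difference, day 5 minus day 1, was 4.75 points over members and -0.371 over all genes.

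Most members are short, so they were set beside genes of their own length. At 2 to 5 kb the median of members was 39.7% in control medium at day 1 against 49.2% in the 886 others, and 23.8% against 11.3% under restriction. At day 5 it was 48.5% against 49.9% in control medium, and 28.5% against 18.8% under restriction. At 5 to 10 kb the control medians were 53.6% and 54.9% at day 1, and 54.5% and 57.8% at day 5, while those under restriction were 40.2% and 30.6%, and 49.3% and 38%. At 10 to 20 kb members were above the others in control medium too, with 63.2% and 56.1% at day 1 and 63.5% and 60.2% at day 5. Under restriction that class had 54% and 41.6% at day 1, and 64.9% and 46.7% at day 5. The 5 members over 40 kb had 25.3% against 25.1% under restriction at day 1, and 24.5% against 27.9% at day 5. In calls, 7 of 18 members of 2 to 5 kb fell at day 1, 38.9%, against 62% of the others, and 10 of 30 members of 5 to 10 kb, 33.3%, against 52.8%. At day 5 the shares that fell were 50% and 53.8% at 2 to 5 kb, and 23.3% and 46.2% at 5 to 10 kb. These are descriptions of lists, with no test of the list.

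**Figure D5:**
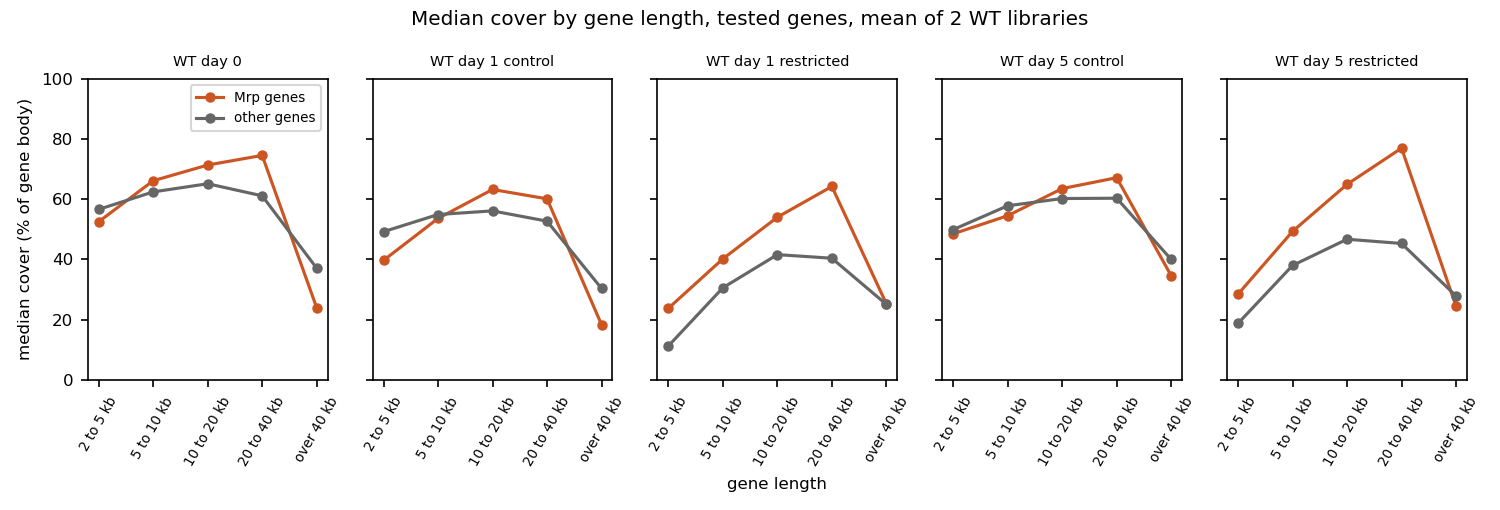
Median cover (% of gene body, mean of 2 WT libraries) of tested Mrp genes (orange) and other tested genes (grey) in 5 classes of gene length, 1 panel per WT group. In restricted medium at 10 to 20 kb the 13 Mrp genes have medians of 54% at day 1 and 64.9% at day 5, against 41.6% and 46.7% in 2097 other genes.

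The cytosolic ribosome offers a second family of short genes. Of 64 tested genes of cytosolic ribosomal proteins (Rpl and Rps), 58 fell under restriction at day 1 and 50 at day 5 by limma. None rose, and the medians were -37.3 and -29.7 points. The shares that fell were 90.6% and 78.1%, against 36% and 41.5% of all genes tested. Of the 886 tested genes of 2 to 5 kb other than members, 62% and 53.8% fell, with medians of -27.4 and -20.6 points. The members had medians of -12.4 and -6.72 points.

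From day 0 to control medium on days 1 and 5, shares of members that fell were near those of all genes, and no member rose. These shares were 5.71% and 14.3% of members, against 5.67% and 15.6% of all genes. From day 0 to day 1 the median difference was -8.06 points over members and -5.31 over all genes. With centring these medians were 0.423 and 3.18 points. From day 0 to day 1, 4 of 70 fell and none rose by limma, with 15 (21.4%) at an unadjusted p under 0.05, where 5.67% of all genes fell, 0.967% rose and 25% had such a p. The 4 were Mrps6, Mrpl46, Mrpl3 and Mrps31. This comparison shares the day 1 control libraries with that of restriction at day 1, so the values of Mrpl46 and Mrpl3 in the 2 comparisons are not independent. Mrps6 went from 93.1% and 83.4% to 55.1% and 64.1% (-28.6 points, SE 6.16, adjusted p = 0.0335). Mrpl46 went from 60.9% and 63.1% to 41.2% and 35.7% (-23.6 points, SE 4.92, adjusted p = 0.0302), and Mrpl3 from 79.5% and 74.8% to 54.2% and 57% (-21.5 points, SE 4.33, adjusted p = 0.0268). Mrps31 went from 59.3% and 59.7% to 38.8% and 42.6% (-18.8 points, SE 4.63, adjusted p = 0.05, just under the threshold unrounded). None of the 4 was called when only these 4 libraries were fitted, nor without day 0 replicate 1 or day 1 control replicate 1, nor without either restricted day 5 library.

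From day 0 to day 5, 10 of 70 members fell and none rose by limma, with 19 (27.1%) at an unadjusted p under 0.05, where 15.6% of all genes fell, 12.2% rose and 38% had such a p. The median difference was -5.92 points over members and -1.17 over all genes. Mrps6 went on to 43.4% and 31.9% (-50.6 points from day 0, SE 6.16, adjusted p = 0.000445), a fall called in 18 of 18 alternatives. Mrpl16 fell from 50.6% and 54.5% to 21.5% and 6.36% (-38.6 points, SE 8.1, adjusted p = 0.00804), and this call was lost at 0.07 without replicate 2 of the day 5 control, at 0.0779 with the stricter peaks and at 0.384 with lists of equal length. Mrpl46 fell by 29 points (SE 4.92, adjusted p = 0.00278), a call lost at 0.165 with the stricter peaks and at 0.317 with lists of equal length. Mrpl47 fell by 28.1 (SE 5.37, adjusted p = 0.00515) and was called in 18 of 18. Mrpl40 fell from 73.9% and 72.4% to 56.8% and 45.6% (-22 points, SE 6.02, adjusted p = 0.0268), a call lost at 0.165 without replicate 2 of the day 5 control and without either day 0 library. Without replicate 2 of the day 5 control, the median difference was -1.56 points over members and -0.0894 over all genes. This comparison and that of restriction at day 5 share the day 5 control libraries, so the values of Mrpl46, Mrpl47 and Mrpl16 in them are not independent.

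From day 1 to day 5, 1 member rose and 1 fell, where 17.1% of all genes rose and 5.95% fell. Centring gave 0 higher and 5 lower, 0% and 7.14%, against 10.4% and 12.4% of all genes, and lists of equal length 1 higher and 5 lower of 67, 1.49% and 7.46%, against 7.55% and 10.5%. Mrpl1, which forms a mobile stalk in the ribosomes of bacteria, went from 16.8% and 20.1% to 38.4% and 30.9% (16.2 points, SE 5.02, adjusted p = 0.05, just under the threshold unrounded). Its call was lost without any 1 of 8 of the 10 WT libraries. With lists of equal length its difference was -6.43 points. Mrps6 fell by 22 points (SE 6.16, adjusted p = 0.0349), a call lost without any of the 4 libraries compared or either restricted day 5 library.

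In the Setd2 KO lines the members had little cover. Averaged over conditions, WT exceeded the KO lines in 69 of 69 members by limma, where WT was higher in 92.7% of 8861 genes tested. The filter for this test needs cover somewhere, which was mostly in WT, so the count is a description. In 57 of the 69 members both WT libraries were above both KO libraries in all 5 conditions, as they were in 76.9% of the genes tested. With peaks of −log10 q of at least 3 it was 26 of 62 members, 41.9%, and 59% of 7345 genes. Of the 73 members of at least 2 kb, 31 had a peak in no KO library, 35 had one in some library of line 1 and 13 in some library of line 2. These are 42.5%, 47.9% and 17.8% of the members, against 50%, 46.4% and 14.7% of other genes of at least 2 kb, and 22.4%, 75.3% and 15.9% of other tested genes.

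The cover that remained lay mostly in KO line 1 at day 5. There 32 of the 73 members had a peak in control medium and 14 under restriction, and 3 and 1 of them were marked. As shares, 43.8% and 19.2% of members had a peak, against 42% and 31.8% of other genes of at least 2 kb and 71.9% and 49.9% of other tested genes. The shares marked were 4.11% and 1.37%, against 8.42% and 3.32% of other genes of at least 2 kb and 16.9% and 6.5% of other tested genes. The peaks of that line covered 74.1 and 45.8 Mb at day 5, against 17.7 Mb at day 0. Mrpl33 had 89.9% in control medium and 88.7% under restriction, Mrpl12 66.4% and 0%, Mrpl49 51.1% and 9.67%, Mrpl20 47.7% and 18.3%, and Mrpl52 46.2% and 34.3%. Mrpl12 is a large-subunit protein that also binds the mitochondrial RNA polymerase. Mrpl52, with 34.3% in restricted KO line 1 at day 5, had none in the restricted WT libraries. Each of these values is 1 library without a replicate. Cytosolic ribosomal protein genes were marked in 58 of 66 cases in KO line 1 at day 5 in control medium and 34 of 66 under restriction. In KO line 2 at day 5 in control medium, 12 members had a peak, and the mean over the 63 members with a known strand was 5.87% in bin 1 and 0% in bin 10. The members with a peak are 16.4%, against 11.5% of other genes of at least 2 kb, and other genes of 2 to 20 kb had 2.74% in bin 1 and 0.0632% in bin 10.

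Other genes of mitochondrial translation were taken from lists, whose counts stand beside the shares of all genes tested given above, 36% lower at day 1 and 41.5% at day 5 under restriction, 17.1% higher from day 1 to day 5 and 15.6% lower from day 0 to day 5. Of 3 tested mitoribosome proteins without an Mrp symbol, Gadd45gip1 fell under restriction at day 1 (-53.2 points, SE 9.16, adjusted p = 0.00251) and at day 5 (-52.6 points, adjusted p = 0.00211), and Dap3 and Ptcd3 were not called. Of 8 tested translation factors, 3 fell at day 1, a share near that of all genes, and none was called at day 5 by limma. Tufm, the elongation factor that delivers aminoacyl-tRNA, fell by 59.6 points (SE 12.1, adjusted p = 0.00564), and its exchange factor Tsfm fell by 24.7 (SE 6.54, adjusted p = 0.018). The initiation factor Mtif3 fell by 14 (SE 4.57, adjusted p = 0.0418). From day 1 to day 5 the recycling factor Mrrf rose by 25.4 points (adjusted p = 0.0133) and the initiation factor Mtif2 by 20.6 (adjusted p = 0.0367).

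Of 14 tested genes of mitoribosome assembly and rRNA modification, 1 rose and 2 fell at day 1, and 2 rose and 1 fell at day 5. Fastkd2, which binds the large ribosomal RNA, rose by 25 points at day 1 (SE 5.75, adjusted p = 0.00984) and by 35.5 at day 5 (adjusted p = 0.00147). The GTPase gene Gtpbp10 rose by 25 points at day 5 (SE 4.27, adjusted p = 0.00192). Mterf4 fell by 36.9 points at day 1 (SE 7, adjusted p = 0.00404), and the methyltransferase gene Mrm2, all of whose body is shared with other genes, fell by 21.9 at day 1 and 33.2 at day 5 (adjusted p = 0.0096 and 0.001). From day 0 to control medium at day 5, Fastkd2, Gtpbp10 and Mrm2 fell by 20.4, 19 and 17.2 points (adjusted p = 0.03, 0.011 and 0.0336). That comparison shares the day 5 control libraries with restriction at day 5, so the values are not independent. Mrm2 also fell from day 0 to day 1, by 34.1 points, and rose from day 1 to day 5, by 16.9 (adjusted p = 0.00922 and 0.0417), with control libraries shared in the same way. Of 6 genes of mitochondrial transcription and RNA stability, Lrpprc rose at day 1 by 14.5 points (SE 4.53, adjusted p = 0.0347), and Tefm fell on both days, by 20.2 and 30.7 points (adjusted p = 0.0499 and 0.00766). Lrpprc averaged 69% at day 0, and in control medium 50.6% at day 1 and 69.6% at day 5. It thus fell by 18.5 points and then rose by 19 (adjusted p = 0.0499 and 0.0181). These 2 comparisons and that of restriction at day 1 share the day 1 control libraries, so the 3 values are not independent. Slirp fell from day 0 to day 1 by 19.3 points (adjusted p = 0.0421). Of 6 nuclear regulators tested, Yy1 fell by 14.8 points at day 1 and 40.5 at day 5 (adjusted p = 0.0174 and 0.000103), Ppargc1b by 22.7 and 24.4 (adjusted p = 0.00265 and 0.00147) and Esrra by 35 and 24.4 (adjusted p = 0.0128 and 0.0462), while Nrf1, Gabpa and Pprc1 were not called. The fall of Yy1 was larger at day 5, by 25.7 points (adjusted p = 0.0345 for the difference between days), and in control medium it rose from day 1 to day 5 by 22.6 (adjusted p = 0.00388), a comparison of the same control libraries.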

How the data were processed

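H3K36me3 ChIP-seq of C2C12 cells was deposited by the authors as 20 broad-peak lists, 1 per library, called separately. Each peak has the authors' deposited fold enrichment (a ratio), −log10 p, −log10 q and score. The −log10 q served for 2 alternatives, stricter peaks and lists of equal length, and the others were not used here. The lowest −log10 q in the lists was 1. The build is GRCm38, per the submitters' processing notes. The peak caller and aligner are not given in the sources used here. Lists hold no read depth, so no counting interval is given. The input was not used and no spike-in scaling was applied.

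Peaks of each library were merged and the percent of every RefSeq GRCm38.p6 gene body inside them was computed (Python 3.11.15, pandas 2.3.3). Peak names inside the KO lists call the lines replicates, and the labels were followed. limma 3.58.1 in R 4.3.3 (trend and robust) was fitted to the percent of cover of 9514 protein-coding genes of at least 2 kb with a mean of at least 5% over 10 WT libraries, with 5 groups sharing the spread. Calls are Benjamini-Hochberg adjusted p under 0.05 over all genes. WT and KO were compared with 1 value per KO line and WT replicate number, averaged over conditions. The WT values join libraries by replicate number alone, so their spread is not known to be one between cultures. Strand came from the promoter table. Both steps were tested on simulated data.

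Named members are, per WT contrast, up to 5 called in each direction with the largest difference and no overlap of libraries, the 5 with the highest and lowest WT cover, the 5 highest in KO line 1, those without a peak and those under 2 kb. Mrps11 was added after its values were seen. Members, lists and tests were chosen with earlier results of these data known. Alternatives were stricter peaks, lists of equal covered length, centring, other filters, bases of no other gene, a replicate block and leaving out each library.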

Additional observations from a re-analysis of the deposited data

How the results depend on the processing

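Under restriction at day 1, 25 members were called (3 higher, 22 lower). With peaks of −log10 q of at least 3 it was 14, all lower, 21.5% against 31.5% of all genes. It was 12 with lists of equal length (4 higher, 8 lower) and 18 with centring (12 higher, 6 lower), with shares given above. With 1 WT library left out, the median ran from -14.5 to -7.97 points over members, and from -10.3 to -5.73 over all genes. At day 5 it was 25, then 16 with the stricter peaks and 15 to 27 with a library left out. The difference between days, called in 0 members by limma, was called in 4 with the stricter peaks and 3 with lists of equal length, all higher. These were 6.15% and 4.48% of members, against 3.84% and 4.11% of all genes higher and 2.66% and 3.28% lower. With a library left out, the median ran from 1.77 to 7.89 points over members, and from -2.7 to 1.69 over all genes. From day 0 to day 1 the count of 4 became 7 with the stricter peaks, 10.8% lower against 9.42% of all genes. It was 1 with lists of equal length and 1 with centring, both lower, 1.49% and 1.43% against 1.39% and 1.14%. With only the libraries compared it was 0, as it was for all genes. With a library left out, the median ran from -10.2 to -6.51 points over members, and from -6.63 to -3.51 over all genes. From day 0 to day 5 the count of 10 became 4 with only the libraries compared, 5.71% lower against 10% of all genes. With a library left out, the median ran from -9.04 to -1.56 points over members, and from -2.5 to -0.0894 over all genes. From day 1 to day 5 the count of 2 (1 higher, 1 lower) became 6 with lists of equal length (1 higher, 5 lower). Centring gave 5, all lower. It was 1, lower, without the cover filter, without the length minimum and with bases of no other gene. These were 1.37%, 1.41% and 1.43% of members, against 2.62%, 5.84% and 5.99% of all genes. Of all genes 8.2%, 16.6% and 16.8% were higher there, and no member was. With a library left out, the median ran from 0.798 to 4.51 points over members, and from 2.81 to 5.11 over all genes. WT above the KO lines was called in 69 of 69 members, against 92.7% of 8861 genes. Fits without a KO line or WT replicate leave a lone value in 1 arm, and their calls are not given. The 57 members with WT libraries above both KO lines were 26 with the stricter peaks (82.6% and 41.9% of members tested, against 76.9% and 59% of all genes). Over 517 alternative values of the 29 named results, 412 kept direction and call, 104 lost the call and 1 reversed (Mrpl1 from day 1 to day 5, -6.43 points with lists of equal length). The causes were not tested.

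The correlation over genes of same-numbered deviations between groups ran from -0.439, between day 0 and day 1 control, to 0.0614. This cannot tell whether same-numbered libraries shared a culture or a batch, which the labels do not say. With the number as a block, 25 and 24 members were called under restriction at days 1 and 5. Those that fell were 31.4% and 25.7%, against 34.1% and 39.8% of all genes, and those that rose 4.29% and 8.57%, against 2% and 4.09%. The difference between days was called in 0, against 1.16% higher and 3.04% lower of all genes. From day 0, 3 fell by day 1 and 9 by day 5, 4.29% and 12.9% against 4.16% and 14.5%. From day 1 to day 5 it was 3 (1 higher, 2 lower), against 15.4% higher and 5.54% lower. Peak lists without depth limit every value to where peaks were called.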
